A study of Mus musculus with 26 samples.

Results

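The genes described here are 9 brakes on cell division and growth: the CDK inhibitor genes Cdkn1a (p21), Cdkn1b (p27), Cdkn2c (p18) and Cdkn2d (p19), the antiproliferative genes Tob1, Tob2, Btg1 and Btg2, and Ccng2, which encodes cyclin G2. They were taken by symbol from the 2 tables of an RNA-seq study of mouse pro-B cells depleted of Brg1, the ATPase subunit of SWI/SNF chromatin remodelling complexes encoded by Smarca4. All 9 were listed in both tables, in 10 of 19404 rows of the deletion table and 10 of 19719 rows of the knockdown table, because Tob2 has 2 rows. All cells came from C57/Bl6 mice and were B220+ bone marrow cells kept in culture with IL7 and SCF for 7 days. The mice's ages are not given in the sources used here. In the deletion experiment both groups carried ER-Cre, a Cre recombinase that tamoxifen switches on, and both received 0.3 µM tamoxifen during the final 60 hours. The controls had the genotype Brg1+/+ x ER-Cre (2 libraries), and the Brg1-deleted cells had Brg1F/F x ER-Cre (2 libraries), so that only the second group had floxed Brg1 alleles to lose. In the knockdown experiment all cells were Rag1-/-, which cannot rearrange antigen receptor genes. A retrovirus with either a Brg1 shRNA (3 libraries) or a control shRNA (3 libraries) was given on days 3 and 4, and 2 days after infection the infected cells were enriched with hCD25 beads. Whether the libraries of 1 group are from different mice is not stated in the labels, so p-values measure the spread between these samples, which may be technical.

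CDK inhibitors bind cyclin-dependent kinases and hold cells in G1. The CIP/KIP members Cdkn1a and Cdkn1b act on several cyclin-CDK complexes, and the INK4 members Cdkn2c and Cdkn2d bind Cdk4 and Cdk6, the kinases that the D-type cyclins activate. The BTG/TOB proteins join the CCR4-NOT deadenylase to messenger RNAs and speed the shortening of poly(A) tails, and Btg1 and Btg2 are known to be abundant in resting lymphocytes. Cyclin G2 is an unconventional cyclin linked to arrest. Several of these genes are known targets of FOXO factors, which growth factor signalling through PI3K and Akt keeps out of the nucleus, and Cdkn1a and Btg2 are known p53 targets. In early B cells, IL7 drives division at the pro-B stage, and exit from the cycle goes with light chain rearrangement.

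Each table gives 1 authors' mean per group and gene, in normalized reads (reads divided by a library size factor). The deletion means could be resolved into whole reads of the 2 libraries. These held about 10194770 and 10786717 reads in controls and about 8805314 and 11558861 in Brg1-deleted cells. A single split was found in both groups for 95.2% of rows, and where there were more, the totals take the most even split. The libraries carry no replicate number after this step and are called the deeper and the shallower library of their group. The knockdown libraries held an estimated 5201371 to 11050878 reads, taking an equal normalized total for each library of a group. The knockdown means were not resolved for these genes, apart from 1 low row. Smarca4 itself fell 2.95-fold after deletion (adjusted p = 0.0008) and 1.98-fold after knockdown (adjusted p = 0.0472) in the authors' deposited table. Of the 15 pro-B cell markers, all 15 were listed in both tables. Markers of myeloid cells were present too, and their values per library are given after those of these genes.

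Promoter sequence is shown for 4 of the genes: Tob1 has the smallest adjusted p-value of the 9 genes after deletion, Btg1 and Btg2 hold a match to a searched motif, and Cdkn1a holds a match to a pattern that was added after its letters had been seen. The Cdkn2c match lies after the start and is not shown. Matches to the Ikaros core (TGGGAA) lie before the start in Btg2, Ccng2, Cdkn2d and the second start of Cdkn1a, and these are not marked. The stretches are from RefSeq, build GRCm38.p6, 5′ to 3′ on the gene's strand, and lie within the 250 bases before the start of transcription. Capitals mark a FOXO motif (GTAAACA on the other strand) in Btg1, a cyclic AMP response element (TGACGTCA) in Btg2 and a pair of p53 core letters (CATG, 6 bases of any kind, CATG) in Cdkn1a. None is marked in Tob1.
Tob1: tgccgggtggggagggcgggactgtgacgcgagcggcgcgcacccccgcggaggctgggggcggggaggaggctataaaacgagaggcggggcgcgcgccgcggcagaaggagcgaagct
Btg1: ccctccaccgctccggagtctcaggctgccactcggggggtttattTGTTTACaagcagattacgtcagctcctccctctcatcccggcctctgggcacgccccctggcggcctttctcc
Btg2: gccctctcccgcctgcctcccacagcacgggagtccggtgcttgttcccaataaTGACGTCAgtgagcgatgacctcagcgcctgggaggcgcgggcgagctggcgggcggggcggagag
Cdkn1a: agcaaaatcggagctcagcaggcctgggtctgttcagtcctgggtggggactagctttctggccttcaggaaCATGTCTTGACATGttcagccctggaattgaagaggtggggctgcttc

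These stretches lie at chr11:94211334-94211453 for Tob1 (+ strand), chr10:96616751-96616870 for Btg1 (+ strand), chr1:134079256-134079375 for Btg2 (- strand) and chr17:29090859-29090978 for Cdkn1a (+ strand). All 9 genes had a RefSeq window of 250 bases before and 50 bases after a start, 11 windows in all, and 6 motifs were searched on both strands. GTAAACA was found in 3.65% of 32851 such windows and, among the 9 genes, in Btg1 alone, 204 bases before its start. TGACGTCA was found in 1.79% of all windows and in Btg2 alone, 166 bases before its start. The Ikaros core TGGGAA was found in 25.6% of all windows and in those of Btg2, Ccng2, Cdkn2d and the second start of Cdkn1a. CACGTG, the E-box of Myc and Max, was found in 7.15% of all windows and in 1 of the 2 Cdkn2c windows. The p53 half-site core CATGCCC was found in 3.76% of all windows and in no window of these genes. The pair of CATG with 6 bases between them was found in 0.712% of all windows and in the upstream start of Cdkn1a, 48 bases before it. A match describes letters and does not show a binding site, and a missing match says only that these letters are not in this window.

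After Brg1 deletion the antiproliferative gene Tob1 rose 3.17-fold, and it was the only one of the 9 genes called at an adjusted p under 0.05 in the authors' deposited table. Over all listed genes 1.47% were called there, and 0.732% were called higher. Of the 9 genes, 8 had a higher mean in Brg1-deleted cells than in controls, all but Cdkn2c, where 49.9% of listed genes did. Their median log2 fold change was 0.89 in the authors' deposited table, against -0.02 over the 9702 genes above the median level. At an unadjusted p under 0.05, 5 of the 9 genes were higher in the authors' deposited table (Cdkn1b, Tob1, Btg1, Btg2 and Ccng2), where 4.23% of listed genes were. After knockdown none of the 9 was called in the authors' deposited table, where 0.218% of listed genes were called and 0.177% were called higher.

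**Figure D1:**
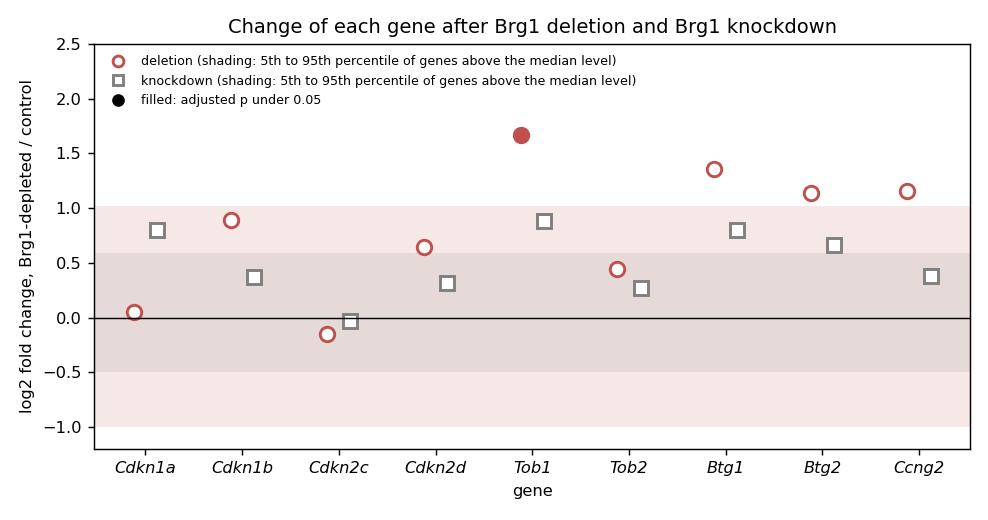
The log2 fold change of Brg1-depleted over control cells in the authors' deposited tables, for each of the 9 genes, after deletion (circles) and knockdown (squares); filled symbols mark an adjusted p under 0.05, and the shaded bands hold the 5th to 95th percentile of genes above the median level (upper ends 1.01 for deletion and 0.59 for knockdown). Tob1, Btg1, Btg2 and Ccng2 lie above the deletion band, and Cdkn1a, Tob1, Btg1 and Btg2 above the knockdown band.

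Of the CIP/KIP inhibitors, Cdkn1b was higher in both Brg1-deleted libraries than in both controls, and Cdkn1a was not. Cdkn1b (ENSMUSG00000003031, mm10 chromosome 6, 134920401 to 134925513) had 1035 normalized reads in the deeper and 1602 in the shallower control, and 2870 and 2032 in the deeper and shallower Brg1-deleted library. The groups did not overlap, as in 24.7% of 16889 resolved genes, in which both Brg1-deleted libraries were above both controls. The lowest deleted value was 1.27 times the highest control value. The authors' deposited table gives 0.89 on the log2 scale (adjusted p = 0.3763), so the gene did not pass the test. Cdkn1a (ENSMUSG00000023067, chromosome 17, 29090979 to 29100722), the p53-responsive inhibitor, had 492 and 916 normalized reads in the deeper and shallower control and 792 and 667 in the Brg1-deleted libraries. Both deleted values lie between the control values, and the log2 fold change in the authors' deposited table was 0.05 (adjusted p = 1). Summed over both genes, the authors' means per kb of exon were 606 in controls and 867 in Brg1-deleted cells.

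Of the INK4 inhibitors, Cdkn2d had groups that stood apart and Cdkn2c did not. Cdkn2d (ENSMUSG00000096472, chromosome 9, 21288463 to 21291209) had 489 normalized reads in the deeper control, 883 in the shallower control, and 1181 and 970 in the deeper and shallower Brg1-deleted library. Its groups did not overlap, but the lowest deleted value was only 1.10 times the highest control. In the authors' deposited table the log2 fold change was 0.65 (adjusted p = 0.7539). Cdkn2d lies 0.325 Mb from Smarca4, the targeted gene, and whether this distance bears on its value was not tested. Cdkn2c (ENSMUSG00000028551, chromosome 4, 109660876 to 109667189) had 801 and 1175 normalized reads in the deeper and shallower control and 899 and 878 in the Brg1-deleted libraries. The deleted libraries lie within the range of the controls, and the log2 fold change in the authors' deposited table was -0.15 (adjusted p = 1). No pair of these 4 inhibitors was tested against another.

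Of the 4 BTG/TOB genes, Tob1 rose and the other 3 had higher means that did not pass the test. Their summed authors' mean per kb of exon was 1439 in controls and 3237 in Brg1-deleted cells. Tob1 (ENSMUSG00000037573, chromosome 11, 94211454 to 94215495), which encodes an adaptor of the CCR4-NOT deadenylase, had 149 normalized reads in the deeper control, 160 in the shallower control, and 532 and 449 in the deeper and shallower Brg1-deleted library. These values rest on 153, 160, 616 and 386 reads. The groups stood apart, with the lowest deleted value at 2.80 times the highest control, and the control libraries were close, at a ratio of 1.07. The authors' deposited table gives a log2 fold change of 1.67 (adjusted p = 0.0031). Among the 142 called rises in the authors' deposited table, Tob1 ranked 64th by fold. limma on the recovered reads of all 16889 resolved genes gave Tob1 a log2 fold change of 1.66 ± 0.20 (SE, 2 libraries per group). Its adjusted p was 0.130, so limma did not call it. That test called 0 genes in all at an adjusted p under 0.05, and 2832 genes, 16.8%, at an unadjusted p under 0.05. Because it called no gene, its lack of a call does not set Tob1 apart from the others. With each library left out in turn the limma log2 fold change of Tob1 stayed between 1.54 and 1.78, with adjusted p from 0.0753 to 0.377.

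Tob2, the paralogue of Tob1, had a main row of higher level and a narrower gap between the groups. This row (ENSMUSG00000048546, chromosome 15, 81848270 to 81858326) had 891 and 972 normalized reads in the deeper and shallower control and 1140 and 1390 in the Brg1-deleted libraries. The groups did not overlap, with the lowest deleted value at 1.17 times the highest control. In the authors' deposited table the log2 fold change was 0.44 (adjusted p = 1). Both Tob2 rows carry the authors' confounded mark, which is not defined in the sources used here and which none of the other 8 genes carries. Of the marked rows of the deletion table, 78.3% overlap another listed gene, against 0.0195% of the others.

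Btg1 and Btg2, which are known to restrain division of lymphocytes, had the highest levels per kb of the set in Brg1-deleted cells. Btg1 (ENSMUSG00000036478, chromosome 10, 96617001 to 96622813) had 1865 normalized reads in the deeper and 3517 in the shallower control. Its Brg1-deleted mean of 6908 could be split into whole reads in 2 ways, as 5598 and 8218 or as 9016 and 4800 in the deeper and shallower library. In either case both deleted libraries lie above both controls. In the authors' deposited table Btg1 had a log2 fold change of 1.36 (p = 0.0429, adjusted p = 0.6032). Btg2 (ENSMUSG00000020423, chromosome 1, 134075170 to 134079120) had 1286 and 2013 normalized reads in the deeper and shallower control. Its Brg1-deleted mean of 3641 could be 912 and 6369, which would overlap the controls, or 4330 and 2951, which would not. The mean alone does not decide between these splits. Btg2 had a log2 fold change of 1.14 (p = 0.0064, adjusted p = 0.2084) in the authors' deposited table. Whether that p-value fits 1 split better than the other was not tested.

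Ccng2, the cyclin G2 gene (ENSMUSG00000029385, chromosome 5, 93267257 to 93276231), was close to the threshold. It had 1293 normalized reads in the deeper control, 1111 in the shallower control, and 2378 and 2996 in the deeper and shallower Brg1-deleted library. The groups stood apart, with the lowest deleted value at 1.84 times the highest control, and the control libraries differed by a ratio of 1.16. The authors' deposited table gives a 2.24-fold higher mean, 1.16 on the log2 scale (adjusted p = 0.057). When the deposited p-values were adjusted anew over the listed genes alone, the adjusted p became 0.0433, which passes the threshold. The deposited p of 0.0007 is rounded to 4 decimals. limma on the recovered reads gave 1.15 ± 0.19 (SE) with an adjusted p of 0.130.

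**Figure D2:**
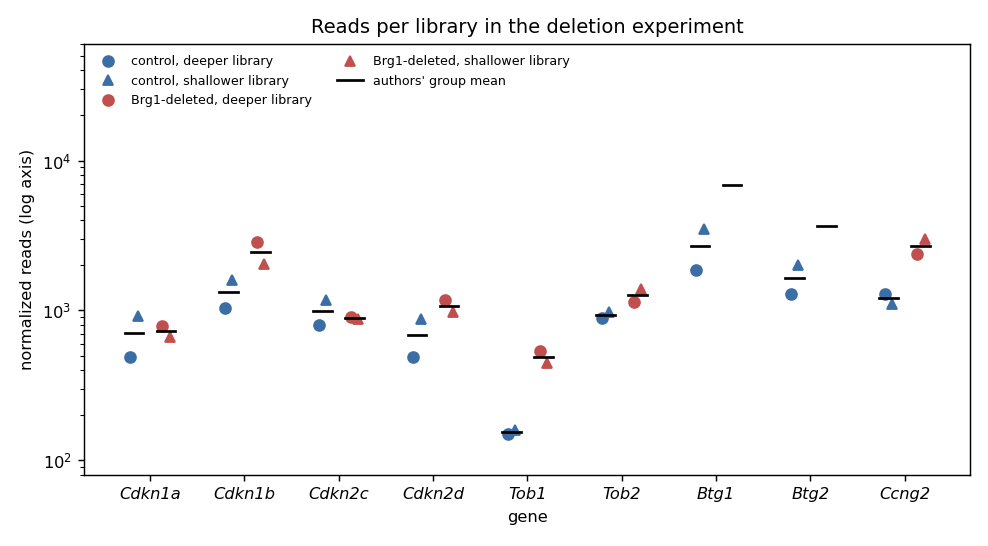
Normalized reads (log axis) of the 9 genes in the deletion experiment, with circles for the deeper and triangles for the shallower library of controls (blue) and Brg1-deleted cells (red), and bars for the authors' group means; Btg1 and Btg2 show only the mean in Brg1-deleted cells, because it could be split in 2 ways. Tob1 and Ccng2 show close control libraries and a gap between the groups, while for Cdkn1a and Cdkn2c the control values enclose the deleted ones.

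Of the 7 genes with 1 value per library in both groups, 5 had both deleted libraries above both controls. These were Cdkn1b, Cdkn2d, Tob1, Tob2 and Ccng2, and the other 2 overlapped. Over all 16889 resolved genes, 24.7% had both deleted libraries above both controls. Libraries of 1 group differed in a like order for 5 of the 7 genes. The deeper control was the lower one in 6 of the 7, all but Ccng2, where 50.7% of resolved genes were lower in it. The deeper Brg1-deleted library was the higher one in 5 of the 7, all but Tob2 and Ccng2, where 49.3% of resolved genes were higher in it. The 2 control libraries differed by a median factor of 1.47 over the 7 genes, against 1.198 over the 9433 resolved genes with a mean above 50. The 2 Brg1-deleted libraries differed by 1.218 over the 7 genes and by 1.210 over those 9433 genes.

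Markers of myeloid, mast and dendritic cells differed between the same libraries. Of the 14 resolved of 15 listed myeloid markers, 9 were higher both in the shallower control and in the deeper Brg1-deleted library, and 3 were higher in neither (S100a8, S100a9 and Elane). The 3 markers given next were chosen after their values were seen. The complement gene C1qb had 11.7 normalized reads in the deeper and 210 in the shallower control, and 117 and 9.30 in the deeper and shallower Brg1-deleted library. The macrophage receptor gene Csf1r had 259 and 913 in controls and 683 and 186 in Brg1-deleted libraries, in the same order. The neutrophil gene S100a8 had the opposite order, with 208 and 13.0 in controls and 0.864 and 134 in Brg1-deleted libraries. Over the 14 markers the summed level was 4347 and 8727 in the deeper and shallower control and 5046 and 2668 in the deeper and shallower Brg1-deleted library, and none of the 14 was at 0 in any library. Lyz2 alone accounts for 5288 of the 8727. In the authors' deposited table, of the 15 myeloid markers 4 were called lower after deletion (Prtn3, Elane, Ctsg and Ly6c2). So were 2 of 11 T and innate lymphoid markers (Thy1 and Lck), and none of either list was called after knockdown. Over all listed genes 1.47% were called in either direction after deletion, and 0.218% after knockdown. The pro-B marker Cd79b, which encodes a partner of membrane immunoglobulin, rose from 8045 to 20542 (adjusted p = 0.0106), and Irf8, a transcription factor fixed here as a dendritic marker, from 2730 to 6601 (adjusted p = 0.0153), after deletion in the authors' deposited table. With knockdown the mature B marker Ms4a1 rose from 853 to 2351 (adjusted p = 0.0016) in the authors' deposited table. The authors' means of all 15 pro-B markers summed to 59806 in controls and 86422 in Brg1-deleted cells. Mast cell and basophil markers (6 of 6 resolved) summed to 177 and 399 in controls and to 368 and 174 in Brg1-deleted libraries. Dendritic markers (4 of 5 resolved) summed to 259 and 494 in controls and to 514 and 249 in Brg1-deleted libraries, and each of the 4 had this order. The 5 resolved of 15 pro-B markers summed to 5490 and 3553 in controls and to 1466 and 5010 in Brg1-deleted libraries, the reverse order. In bulk RNA, fewer cells of a type and less RNA per cell cannot be told apart. The part of these markers in the values of Cdkn1a, Cdkn1b, Cdkn2c, Cdkn2d and Tob1 was not tested. Without the shallower control, the limma log2 fold change was 1.22 for Cdkn1b and 1.13 for Cdkn2d. Without the deeper control it was 0.59 and 0.28, so the size for these 2 genes changes by over 1.5 times with the control library used. For Cdkn1a the direction itself changed, from 0.56 without the shallower control to -0.33 without the deeper one, and for Cdkn2c from 0.15 to -0.40.

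After Brg1 knockdown in Rag1-/- cells, 8 of the 9 genes again had a higher mean than in control shRNA cells, where 49.7% of listed genes did, and the median log2 fold change of the 9 was 0.38 in the authors' deposited table. None passed the adjusted threshold. At an unadjusted p under 0.05 there were 2 in the authors' deposited table, Btg1 and Cdkn1a, where 1.67% of listed genes were higher at that level. Btg1 had authors' means of 1621 and 2823, 0.80 on the log2 scale (p = 0.0044, adjusted p = 0.8146) in the authors' deposited table. Cdkn1a had 810 and 1409, also 0.80 on the log2 scale (p = 0.0388, adjusted p = 1) in the authors' deposited table. Only group means can be given here, so whether the libraries overlap is not known.

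The largest log2 fold change of the 9 after knockdown was again that of Tob1, 0.88, from 92.1 to 169 normalized reads, with p = 0.129 before adjustment in the authors' deposited table. Btg2 went from 621 to 983, Cdkn1b from 754 to 972, Ccng2 from 1129 to 1470, Cdkn2d from 582 to 725 and Tob2 from 573 to 690, each with adjusted p = 1 in the authors' deposited table. Cdkn2c was at 930 in control shRNA and 908 in Brg1 shRNA cells, a log2 fold change of -0.03 in the authors' deposited table that becomes 0.01 when both columns are scaled to the same total.

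The experiments use separate cells and controls. The same 8 genes were above 0 in both, where 38.6% of the 8923 shared genes above the median level were, and Cdkn2c was below 0 in both. The absolute log2 fold change was smaller after knockdown in 8 of the 9, where 78.4% of those shared genes had a smaller one. Cdkn1a was the exception, with 0.05 after deletion and 0.80 after knockdown in the authors' deposited tables. The difference between the experiments was not tested, because values per library exist for deletion alone.

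Per kb of exon, Tob1 was the least abundant of the 9 genes in each of the 4 groups, at 67.6 normalized reads per kb in controls and 214 in Brg1-deleted cells, and at 40.3 and 74.0 in control and Brg1 shRNA cells. In the controls of the deletion experiment Btg2 was highest at 601 per kb, followed by Cdkn2d at 540 and Btg1 at 537, and then Cdkn2c at 368, Cdkn1a at 317, Cdkn1b at 290, Tob2 at 233 and Ccng2 at 220. The ranges of the 2 control libraries overlap between all neighbours in this order apart from Ccng2 and Tob1: Cdkn2d spans 385 to 694 per kb, Btg1 372 to 702 and Btg2 469 to 734. Tob1, from 65.2 to 70.0, lies below the range of every other gene, and Ccng2, from 204 to 237, overlaps Tob2, from 223 to 243. In Brg1-deleted cells the order was headed by Btg1 at 1379 and Btg2 at 1327, ahead of Cdkn2d at 846. Ccng2, at 492 per kb, and Cdkn1b, at 538, were above Cdkn2c, at 331, and Cdkn1a, at 328. Among Rag1-/- control shRNA cells Cdkn2d was highest at 458 per kb and Btg2 only at 226, and with Brg1 shRNA Cdkn1a was highest at 634. These orders rest on the authors' group means, with no test.

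**Figure D3:**
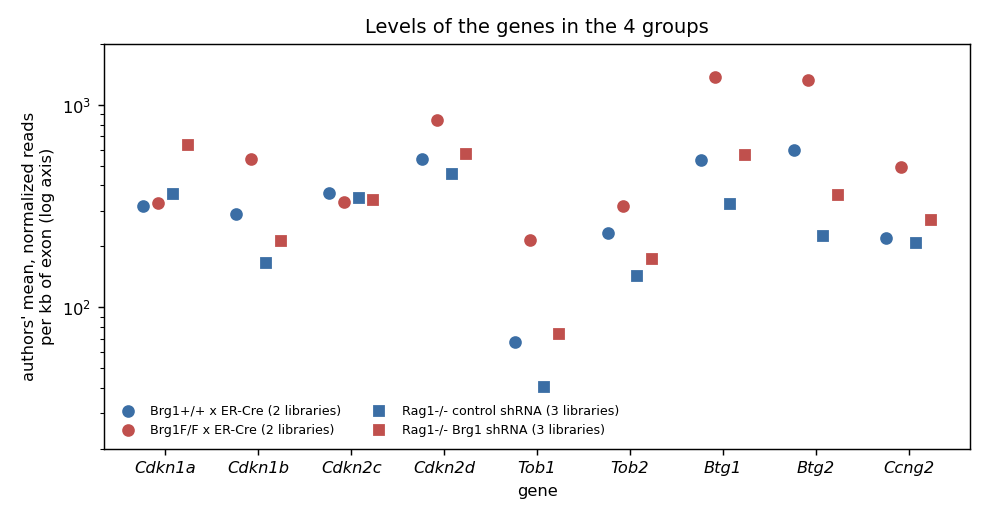
Authors' means in normalized reads per kb of exon (log axis) for the 9 genes in the 4 groups, with circles for the deletion and squares for the knockdown experiment, blue for controls and red for Brg1-depleted cells. Tob1 is lowest in each group, and the BTG genes reach 1379 and 1327 in Brg1-deleted cells.

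The controls of the 2 experiments can be set side by side only as shares of each table's total, since the tables were normalized separately and the cells differ in Rag1, ER-Cre, virus, hCD25 bead enrichment and tamoxifen at once. Btg2 showed the widest gap, with 159 CPM (normalized reads relative to the column's total) in Brg1+/+ x ER-Cre cells and 69.9 CPM in Rag1-/- control shRNA cells, a ratio of 2.28. Cdkn1b, Tob1, Btg1 and Tob2 had ratios of 1.50, 1.44, 1.42 and 1.39, and Cdkn2d was level at 1.01. Cdkn2c and Ccng2 were at 0.910 and 0.912, and Cdkn1a, at 0.744, was the lowest relative to the Rag1-/- cells. The authors' means of the 15 myeloid markers summed to 8713 in Brg1+/+ x ER-Cre cells and to 510 in Rag1-/- control shRNA cells, and their part in these ratios was not tested. Genotype, ER-Cre, infection, bead enrichment and tamoxifen cannot be told apart in this comparison.

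Related genes outside the set were followed in 8 lists. The other CDK inhibitor, BTG and cyclin G genes (9 listed) had no called gene in either experiment in the authors' deposited table and medians of -0.26 after deletion and 0.00 after knockdown. In that list Cdkn2a, the Ink4a-Arf gene, went from 68.0 to 31.2 and Cdkn1c (p57) from 26.7 to 47.5 after deletion (adjusted p = 1 for both) in the authors' deposited table. After knockdown Cables2, of a family of CDK-binding adaptors, had 505 and 387 normalized reads and Cdkn2a 69.7 and 51.1 (adjusted p = 1 for both) in the authors' deposited table. The 19 genes of turnover and modification of CDK inhibitors had no called gene and medians of -0.37 and -0.12 in the authors' deposited tables. The nuclear exporter Xpo1 went from 3894 to 2126 (adjusted p = 0.2242) and Dtl, a substrate receptor of the Cul4 ligase, from 1275 to 738 (adjusted p = 0.4291) after deletion in the authors' deposited table. After knockdown Dtl had 1461 and 1181 and the kinase gene Pim3 227 and 188 normalized reads (adjusted p = 1 for both) in the authors' deposited table.

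The targets and partners of CDK inhibitors (G1 cyclins, CDKs, pocket proteins and E2F factors, 19 listed) lay on the other side of 0. After deletion 16 of the 19 had a lower mean, with a median log2 fold change of -0.54 and no call in the authors' deposited table. Over all listed genes 49.9% had a higher mean after deletion and 49.7% after knockdown. Cdc25a, the phosphatase that activates Cdk2, went from 1097 to 535 normalized reads (adjusted p = 0.1056), and cyclin E2, Ccne2, from 626 to 315 (adjusted p = 0.1957), in the authors' deposited table. With knockdown 13 of 19 were below 0, with a median of -0.12 and no call in the authors' deposited table. The E2F partner Tfdp1 had 2569 and 1974 normalized reads and cyclin E1, Ccne1, 600 and 479 after knockdown (adjusted p = 1 for both) in the authors' deposited table. The CCR4-NOT deadenylase and its partners, on which the BTG/TOB proteins act (17 listed), were centred near 0, at -0.09 after deletion and 0.01 after knockdown, with no call in the authors' deposited tables. In that list the poly(A) binding protein gene Pabpc4 went from 3433 to 1715 (adjusted p = 0.127) and the methyltransferase gene Prmt1 from 1849 to 960 (adjusted p = 0.3098) after deletion in the authors' deposited table. After knockdown Pabpc4 had 2790 and 2171 and Prmt1 1783 and 1316 normalized reads (adjusted p = 1 for both) in the authors' deposited table.

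Among the 8 lists, the 21 quiescence-associated genes had the highest median in both experiments. After deletion 18 of 21 had a higher mean and the median log2 fold change was 0.88, with 2 called rises in the authors' deposited table. These were Mxd4, a Max-binding antagonist of Myc, from 999 to 3332 (adjusted p = 0.0003), and Ypel3, a gene linked to growth arrest, from 1088 to 3250 (adjusted p = 0.0014), in the authors' deposited table. With knockdown 20 of 21 had a higher mean, where 49.7% of listed genes did, and the median was 0.56. No gene of the list was called in the authors' deposited table. Pik3ip1, an inhibitor of PI3K, had 232 and 476 normalized reads (adjusted p = 0.1846) and the repressor gene Klf3 119 and 343 (adjusted p = 0.5613) after knockdown in the authors' deposited table. The 15 genes of FOXO factors and their brakes share members with the quiescence list. After deletion 1.47% of all listed genes were called in the authors' deposited table, and of these 15 genes 1 was called. This was Irs2, the insulin receptor substrate gene, which rose from 284 to 793 (adjusted p = 0.0073), while Foxo4 had 304 and 680 (adjusted p = 0.0786), in the authors' deposited table. After knockdown Irs2 had 145 and 325 normalized reads (adjusted p = 1), and no gene of that list was called, in the authors' deposited table. The medians of that list were 0.31 and 0.22.

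The p53 list (15 listed) had no called gene in the authors' deposited tables and medians of 0.18 after deletion and 0.22 after knockdown. Gadd45a, a stress-induced gene, had 117 and 289 normalized reads after deletion (adjusted p = 0.0612) and 80.3 and 130 after knockdown (adjusted p = 1) in the authors' deposited tables. Trp53inp1 had 3878 and 7386 after deletion (adjusted p = 0.1841) and Phlda3 86.7 and 156 after knockdown (adjusted p = 1) in the authors' deposited tables. The list drawn up as repressors of CDK inhibitor genes (11 listed) includes regulators that do not act as repressors. In it Bcl6, the B cell repressor, rose from 101 to 501 after deletion (adjusted p = 4.97e-06) in the authors' deposited table. Myc, which is known to repress Cdkn1a and Cdkn2b, had 1938 normalized reads in controls and 517 in Brg1-deleted cells (adjusted p = 0.146) in the authors' deposited table, and so did not pass the test. The medians of this list were 0.39 and 0.07. After knockdown Id2, an inhibitor of E proteins, had 31.0 and 83.8 normalized reads (adjusted p = 0.2859) and Gfi1b 106 and 195 (adjusted p = 1) in the authors' deposited table. The lists were chosen with earlier results of these data known, so their directions are descriptions and not independent evidence.

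**Figure D4:**
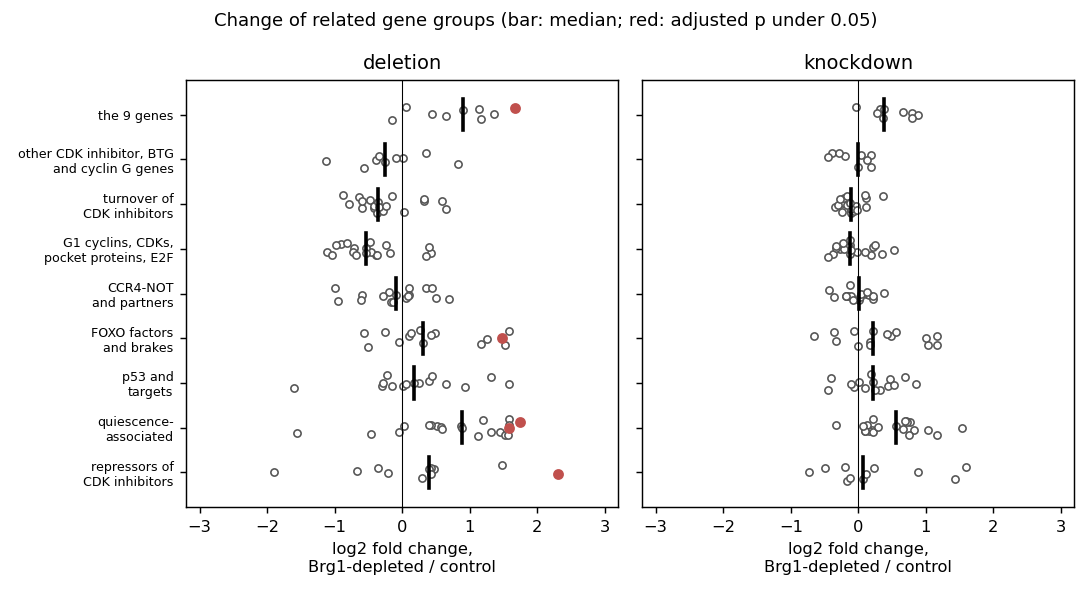
The log2 fold change of Brg1-depleted over control cells for each listed gene (points) of the 9 genes and of 8 related lists, with bars for medians and red for an adjusted p under 0.05 in the authors' deposited tables, after deletion (left) and knockdown (right). The 9 genes (medians 0.89 and 0.38) and the quiescence list (0.88 and 0.56) lie to the right of 0, and the G1 cyclins, CDKs, pocket proteins and E2F factors (-0.54 and -0.12) to the left.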

How the data were processed

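Polyadenylated RNA of 10 libraries in 4 groups was sequenced, with strand marking by dUTP per the labels' protocols. The submitters' processing notes name CASAVA, RSEM and DESeq, without versions, and build mm10. The group columns hold a signal, the mean of normalized reads that the authors deposited. The log2 fold change and the signed fold, a score, are the authors' values per the file headers, as are both p-values, raw and with Benjamini-Hochberg adjustment. The 16 chromatin samples were not analysed here.

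The 9 genes, the lists and the tests were chosen with earlier results of these data known. Named genes are the 9, Smarca4, each called gene of a list, and the 2 of each list and experiment with the smallest adjusted p. Of the marker lists, called genes are named, and C1qb, Csf1r, S100a8, S100a9 and Lyz2 were named after their values were seen. Calls use the adjusted p of the authors' deposited table with a threshold of 0.05; the planned count models were not run.

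In the deletion table a read of either library adds a fixed amount to the group mean. Both amounts were fitted on low values, and within 5.1e-05 all 19404 rows had a solution in both groups (100%), a single one in 18467 (95.2%). The 16889 of these with a mean of at least 1 entered limma 3.58.1 (R 4.3.3) on log2 of reads plus 0.5 over the size factor, with a mean-variance trend. Both steps were tried on simulated counts with a dispersion of 0.05. Every simulated gene with a single split was resolved correctly (100%). There limma detected 22.4% of the 76 true 2-fold differences, against 96.8% of the 62 true 4-fold ones, and made 2 false calls. So a 2-fold difference was mostly missed even there. Whether the real libraries vary as the simulated ones do was not tested. Per kb values divide by the deposited exon length. Other tools were matplotlib 3.10.9, scipy 1.17.1, pandas 2.3.3 and numpy 2.4.6 in Python 3.11.15. Alternatives were other adjustments, thresholds, scalings, pseudocounts of 1 and 10, limma, and leaving out each library.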

Additional observations from a re-analysis of the deposited data

How the results depend on the processing

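Of the 9 genes, 1 was called after deletion at the authors' adjusted p under 0.05. The count was 2 (Tob1 and Ccng2) at an adjusted p under 0.1, for which no count over all genes is given here. It was also 2 with the adjustment over listed genes only and over genes whose mean reached 10. Over genes without the confounded mark, which leaves 8 of the 9, it was 2 as well. Adjusted p for Ccng2 was 0.0433, 0.0287 and 0.0406 under these adjustments. Calls over all genes went from 286 of 19404 to 330 of 19404, 392 of 12873 and 189 of 10259. A minimum of 1.5-fold kept 1. With limma on recovered reads the count was 0 of the 7 resolved genes, and it ranged from 0 to 0 when each library was left out; all limma calls were 0 with every library and 37 without the shallower control. Leaving out a library keeps 1 in that group, which is assumed to vary like the others. After knockdown the count was 0 under each of the 5 alternatives run. The 8 genes above 0 after deletion stayed 8 under both scalings and both pseudocounts, and 5 to 7 of the 7 resolved genes were above 0 with a library left out. The log2 fold change of Cdkn1a after deletion went from 0.05 to between -0.33 and 0.56 and that of Cdkn2c from -0.15 to between -0.40 and 0.15 when a library was left out, and that of Cdkn2c after knockdown from -0.03 to 0.011 with equal column totals. The causes were not tested. No paired analysis was possible because neither the group means nor the recovered libraries carry a replicate number. limma and leaving out libraries were not run for knockdown, where 3 libraries make 1 mean.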

Other observations

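The second Tob2 row (ENSMUSG00000078960, mm10 chromosome 15, 81857674 to 81858796) shares 653 bases and its strand with the main Tob2 gene, so its values are uncertain. It held 5.85 and 3.00 normalized reads in the deeper and shallower control and 9.50 and 11.6 in the deeper and shallower Brg1-deleted library. These are 6, 3, 11 and 10 reads. In the knockdown experiment the row rested on 5, 5 and 1 reads in the control shRNA libraries and on 4, 2 and 5 in the Brg1 shRNA libraries, from the deepest to the shallowest. At this depth the row adds little to the main Tob2 row, whose mean was at least 573 normalized reads in each of the 4 groups.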
